A study of Mus musculus with 23 samples.

Results

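Cd24a and 9 genes of adult hippocampal neurogenesis were described in the hippocampal transcriptome of mice fed an alcohol liquid diet with or without urolithin A (UA), a compound that gut bacteria make from ellagitannins. The genes were the 10 rows of the expression table with the symbols Cd24a, Dcx, Neurod1, Neurog2, Eomes, Sox4, Sox11, Igfbpl1, Draxin and Calb2, out of 19733 rows in all. Cd24a was chosen because it was higher with alcohol in these same mice, so its differences between groups are a description and carry no test. The question was whether the immature neuron genes moved with it.

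Male C57BL/6J mice, 6 weeks old when acquired, were treated for 16 weeks, and behavioral tests took 1 further week. The 9 Ctrl mice took an AIN93M control liquid diet and a gavage of the vehicle, 0.05% CMC-Na. The 7 EtOH mice took the AIN93M ethanol liquid diet with the same vehicle, and the 7 EtOH-UA mice took the ethanol diet with UA at 200 mg/kg/day in CMC-Na. Each of the 23 libraries was from the hippocampus of 1 mouse, and no UA group on the control diet was analysed here. Values are FPKM, fragments scaled to transcript length and to library size, so they can be compared between genes.

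In the adult dentate gyrus, stem cells of the subgranular zone give rise to intermediate progenitors, then to neuroblasts and immature neurons that join the granule cell layer. Neurog2 and Eomes (also called Tbr2) are transcription factors of the intermediate progenitors, and Neurod1 drives neuronal differentiation and stays on in granule cells. Dcx encodes doublecortin, a microtubule-binding protein of migrating neuroblasts, Sox4 and Sox11 are transcription factors of immature neurons, and Calb2 encodes calretinin, a calcium-binding protein of young granule cells that interneurons, mossy cells and thalamic neurons also hold. CD24, the product of Cd24a, is a small glycosylated protein anchored to the cell surface. It is found on immature neurons and also on ependymal cells, the ciliated lining of the ventricles, and on red blood cells and lymphocytes.

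All 10 genes were placed on GRCm38, the assembly also called mm10, by their gene IDs. Cd24a (12484) lies at chr10:43579169-43584265, Dcx (13193) at chrX:143855842-143933396, Neurod1 (18012) at chr2:79452637-79456636, Neurog2 (11924) at chr3:127632733-127635636 and Eomes (13813) at chr9:118478186-118486132. Sox4 (20677) lies at chr13:28948919-28953699, Sox11 (20666) at chr12:27334268-27342718, Igfbpl1 (75426) at chr4:45809507-45826827, Draxin (70433) at chr4:148098437-148131139 and Calb2 (12308) at chr8:110142526-110168212. Processed copies of Cd24a are known elsewhere in the mouse genome, and how reads were shared with them was not examined.

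The proneural factors Neurog2 and Neurod1 bind 6-base E-boxes, and the letters CAGCTG and CAGATG were searched on both strands in RefSeq promoters (GRCm38.p6, from 250 bases before to 50 bases after the start). The table held promoters of 7 of the 10 genes, all but Cd24a, Igfbpl1 and Calb2. CAGCTG was found in the promoters of Sox11, Sox4 and Draxin, first 210, 211 and 132 bases before the start, and in 16.3% of all 32851 promoters. CAGATG was found in 17.2% of all promoters and in none of those of these genes. The 250 bases before the start of Sox11 and Sox4 are shown because these related genes carry the letters at nearly the same distance from the start. Both are on the minus strand, at chr12:27342719-27342968 and chr13:28953700-28953949, written 5′ to 3′ with CAGCTG in capitals; a match of letters is not a binding site.
Sox11: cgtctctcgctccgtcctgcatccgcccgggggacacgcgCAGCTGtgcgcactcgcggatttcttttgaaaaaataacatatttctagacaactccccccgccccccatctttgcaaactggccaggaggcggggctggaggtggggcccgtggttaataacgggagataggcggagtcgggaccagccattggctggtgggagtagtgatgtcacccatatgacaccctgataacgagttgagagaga
Sox4: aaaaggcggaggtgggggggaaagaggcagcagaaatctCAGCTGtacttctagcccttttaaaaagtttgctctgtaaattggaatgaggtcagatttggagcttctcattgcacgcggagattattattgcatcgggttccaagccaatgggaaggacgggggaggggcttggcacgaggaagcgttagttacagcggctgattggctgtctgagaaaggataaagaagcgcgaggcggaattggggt

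Summed FPKM was 330456 to 361354 in Ctrl mice, 327896 to 366930 in EtOH mice and 333801 to 404609 in EtOH-UA mice, and the 2 highest libraries (404609 and 379518) were both EtOH-UA. Read counts were not used here, but the steps between low values of 30 genes put 1 FPKM at about 16.9 fragments per kilobase (quartiles 16.1 and 17.2). On that estimate, and with the longest transcript of each gene, a mouse had about 613 fragments of Dcx and 124 of Cd24a, but only about 16.4 of Neurog2, 14.6 of Igfbpl1, 12 of Draxin and 9.90 of Eomes. All 12 genes of a hippocampal list were above 0 in every mouse, among them Dkk3 at a mean of 126 FPKM and Neurod6 at 104 FPKM, and the median log2 difference of the list between EtOH and Ctrl mice was -0.05.

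Over all 23 mice, Calb2 had the highest mean level of the 10 genes at 25.1 FPKM, followed by Neurod1 at 9.43 FPKM. Cd24a (4.05 FPKM), Dcx (4.01 FPKM) and Sox4 (3.94 FPKM) were neighbors whose means lay within the spread of their values, and Sox11 was at 2.04 FPKM. The remaining genes were low, with Neurog2 at 0.437, Igfbpl1 at 0.303, Eomes at 0.165 and Draxin at 0.137 FPKM. All 10 passed the filter of a mean of at least 0.1 FPKM that left 15986 genes for testing.

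Cd24a ranged from 2.02 to 4.16 FPKM in Ctrl mice (median 2.81), from 3.85 to 6.52 FPKM in EtOH mice (median 5.68) and from 2.80 to 6.08 FPKM in EtOH-UA mice (median 4.19). All 7 EtOH mice were above the Ctrl median and 5 were above the highest Ctrl mouse, while the ranges overlapped. Of the EtOH-UA mice, 6 were above the Ctrl median, 1 was above the EtOH median and 3 were below the lowest EtOH mouse. Ctrl mice had a mean of 2.96 ± 0.734 FPKM (SD, n = 9), EtOH mice of 5.36 ± 1.12 (SD, n = 7) and EtOH-UA mice of 4.12 ± 1.03 (SD, n = 7). On the log2(FPKM + 0.1) scale, Cd24a was 0.84 higher in EtOH than in Ctrl mice (SE 0.16, 95% interval 0.51 to 1.17), a fold of 1.79. EtOH-UA minus EtOH was -0.38 (SE 0.17), and EtOH-UA minus Ctrl was 0.46 (SE 0.16). These comparisons share mice, and none has a test because the gene was chosen from them. The 95% interval of Cd24a does not allow for that choice and does not stand in for a test. In bulk tissue, more cells of a type and more RNA per cell cannot be told apart, and this holds for every gene here.

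**Figure D1:**
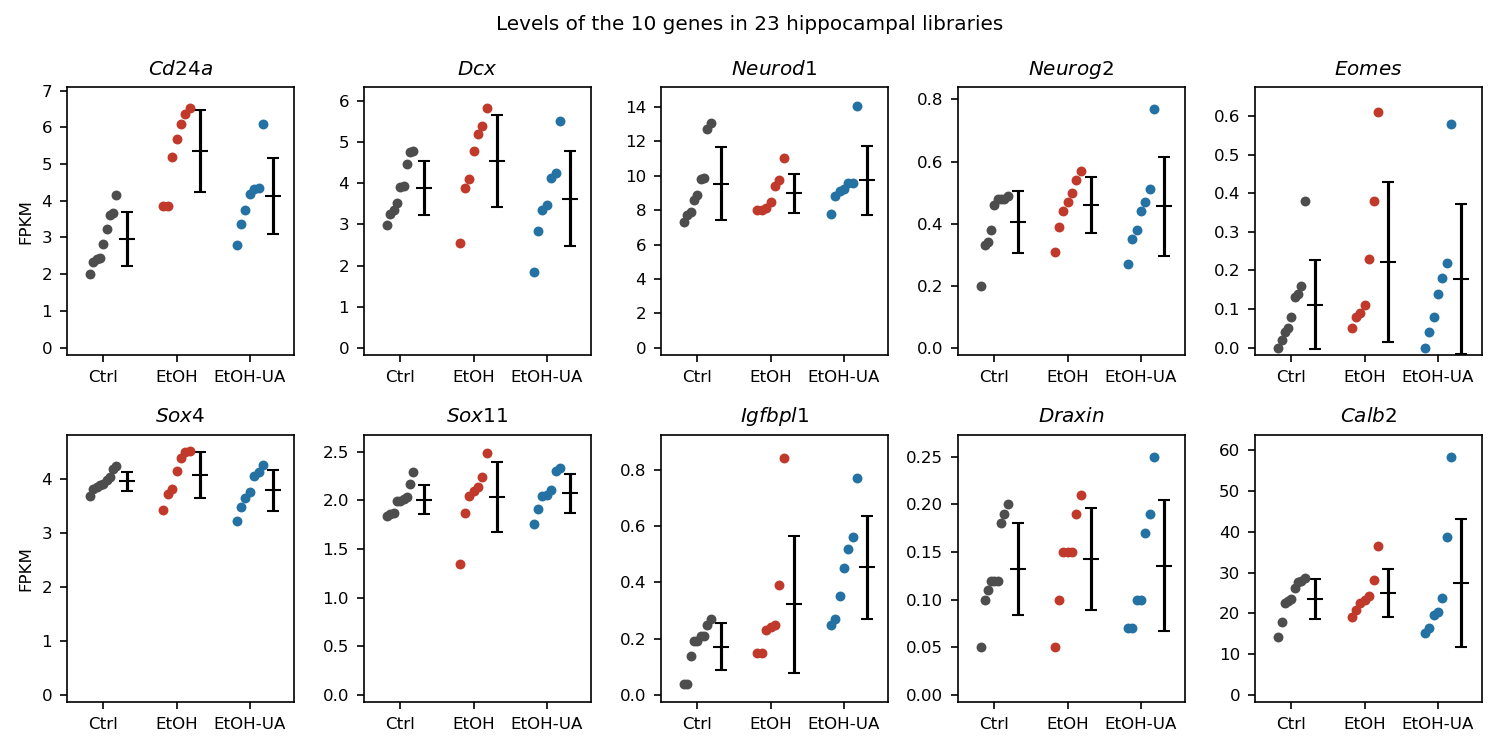
Level in FPKM (y axis, linear) of the 10 genes in each mouse of the Ctrl (gray, 9 mice), EtOH (red, 7 mice) and EtOH-UA (blue, 7 mice) groups, sorted within a group, with the group mean and SD as a black bar beside the points. Cd24a spans 2.02 to 4.16 FPKM in Ctrl and 3.85 to 6.52 FPKM in EtOH mice, and the groups overlap for every gene.

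The intermediate progenitor genes did not pass the test in any comparison. Neurog2 was at 0.20 to 0.49 FPKM in Ctrl (median 0.46), 0.31 to 0.57 in EtOH (median 0.47) and 0.27 to 0.77 in EtOH-UA mice (median 0.44), and EtOH minus Ctrl was 0.16 (SE 0.17, exact permutation p = 0.295). Eomes was at 0 to 0.38 FPKM in Ctrl (median 0.08), 0.05 to 0.61 in EtOH (median 0.11) and 0 to 0.58 in EtOH-UA mice (median 0.14), and 1 Ctrl and 1 EtOH-UA mouse were listed at 0. Its log2 difference of 0.54 between EtOH and Ctrl mice had an SE of 0.38 and an exact permutation p of 0.176. At about 9.90 fragments a mouse, its 95% interval of -0.24 to 1.33 leaves both a small decrease and a large increase possible.

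Neurod1 was better measured than either of them. It was at 7.30 to 13.09 FPKM in Ctrl (median 8.88), 7.99 to 11.03 in EtOH (median 8.49) and 7.76 to 14.07 in EtOH-UA mice (median 9.20). EtOH minus Ctrl was -0.07 (SE 0.12, 95% interval -0.32 to 0.18, exact permutation p = 0.595).

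Dcx was at 2.98 to 4.78 FPKM in Ctrl mice (median 3.91), 2.56 to 5.83 in EtOH mice (median 4.78) and 1.84 to 5.51 in EtOH-UA mice (median 3.47). The EtOH range held the whole Ctrl range. The log2 difference was 0.19 for EtOH minus Ctrl (SE 0.18, 95% interval -0.17 to 0.56, exact permutation p = 0.240), with means of 4.54 ± 1.11 FPKM (SD, n = 7) and 3.89 ± 0.663 (SD, n = 9). EtOH-UA minus EtOH was -0.34 (SE 0.19, exact permutation p = 0.181), and -0.11 without the 2 EtOH-UA mice of the highest summed FPKM. The same omission changed the Cd24a difference from -0.38 to -0.26.

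Sox4 and Sox11 had the narrowest intervals of the 10 genes. Sox4 was at 3.68 to 4.24 FPKM in Ctrl (median 3.90), 3.42 to 4.52 in EtOH (median 4.15) and 3.21 to 4.25 in EtOH-UA mice (median 3.76). Sox11 was at 1.84 to 2.29 FPKM in Ctrl (median 1.99), 1.35 to 2.49 in EtOH (median 2.10) and 1.76 to 2.33 in EtOH-UA mice (median 2.06). EtOH minus Ctrl was 0.04 for Sox4 (95% interval -0.10 to 0.17) and 0.00 for Sox11 (95% interval -0.19 to 0.19), with exact permutation p-values of 0.527 and 0.978.

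Igfbpl1, which encodes a secreted protein related to the insulin-like growth factor binding proteins, had the largest difference of the 9 genes. It was at 0.04 to 0.27 FPKM in Ctrl mice (median 0.19), 0.15 to 0.84 in EtOH mice (median 0.24) and 0.25 to 0.77 in EtOH-UA mice (median 0.45). All 7 EtOH-UA mice were above the medians of both other groups and 5 were above the highest Ctrl mouse. EtOH-UA minus Ctrl was 1.04 (SE 0.27, 95% interval 0.48 to 1.59), with an exact permutation p of 0.000524 and a limma p of 0.00078 that became 0.999 after Benjamini-Hochberg adjustment over all genes. EtOH minus Ctrl was 0.56 (SE 0.27, exact permutation p = 0.0845) and EtOH-UA minus EtOH was 0.48 (SE 0.29, exact permutation p = 0.150). The mean of 0.303 FPKM stands for about 14.6 fragments a mouse.

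Draxin, which encodes a secreted axon guidance protein, and Calb2 did not pass the test either. Draxin was at 0.05 to 0.20 FPKM in Ctrl (median 0.12), 0.05 to 0.21 in EtOH (median 0.15) and 0.07 to 0.25 in EtOH-UA mice (median 0.10), and EtOH minus Ctrl was 0.06 (SE 0.19, exact permutation p = 0.723). Calb2 was at 14.12 to 28.68 FPKM in Ctrl (median 23.52), 19.07 to 36.47 in EtOH (median 23.32) and 15.10 to 58.39 in EtOH-UA mice (median 20.34). Its EtOH-UA group had a wide spread, 27.5 ± 15.7 FPKM (SD, n = 7), and EtOH-UA minus EtOH was 0.01 (SE 0.23, exact permutation p = 0.988) but -0.38 without the 2 EtOH-UA mice of the highest summed FPKM.

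**Figure D2:**
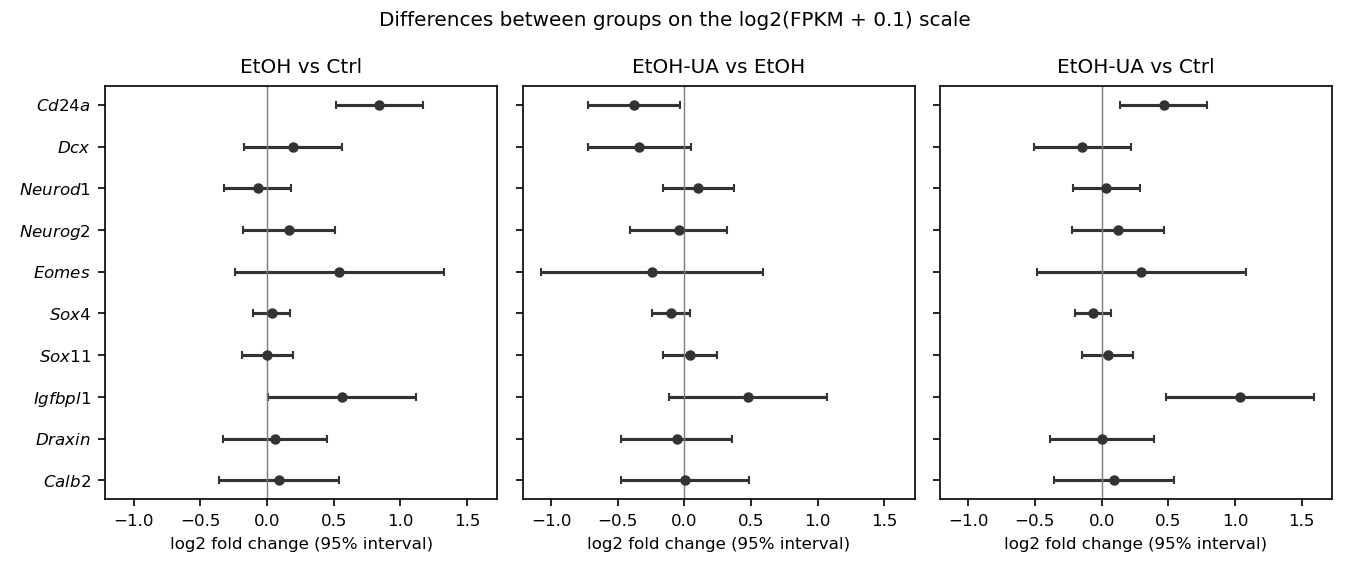
Log2 difference (x axis, log2(FPKM + 0.1)) of each of the 10 genes in the 3 comparisons, with points for the limma estimate over 23 mice and bars for the 95% interval. The bars of Cd24a do not allow for its choice from these same mice. Cd24a is at 0.84, -0.38 and 0.46, while the intervals of Sox4 and Sox11 lie within 0.25 of 0 in each panel, and Igfbpl1 is at 1.04 in EtOH-UA against Ctrl mice.

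Read over the 9 genes other than Cd24a, 8 were higher in EtOH than in Ctrl mice, beside 48.6% of all 15986 genes tested, and their median log2 difference was 0.09 against 0.00 for all genes. At an adjusted p under 0.05 limma called 0 of the 9 genes, beside 0.0% of the 15986 in that comparison. At an unadjusted p under 0.05 there was 1 of the 9, Igfbpl1, and 487 genes or 3.05% in the whole table. In EtOH-UA against EtOH mice 4 of the 9 were higher (51.2% of the table), 0 were called (0.0%) and 0 had an unadjusted p under 0.05 (3.27%). In EtOH-UA against Ctrl mice 7 of the 9 were higher (51.2%), 0 were called (0.0%) and 1, again Igfbpl1, had an unadjusted p under 0.05 (3.08%). The adjusted p-values of the 9 were 0.999 in EtOH against Ctrl and 0.900 or more in the other comparisons.

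Whether the genes moved with Cd24a from mouse to mouse was asked with deviations from the group means, which do not hold the difference by which Cd24a was chosen. Across 23 mice, 7 of the 9 genes had a Pearson r above 0 with Cd24a, beside 50.3% of 15985 genes, and the median r was 0.23 against 0.00 for all genes (quartiles -0.37 and 0.34). Dcx had the highest, r = 0.40 (permutation p = 0.0695, adjusted over 45 pairs p = 0.284) with Spearman rho = 0.37 (permutation p = 0.10, adjusted p = 0.332), and r = 0.35 without the 2 mice farthest from the Cd24a median. Within groups that r was 0.07 for Ctrl, 0.80 for EtOH and 0.37 for EtOH-UA mice.

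The others followed with r = 0.32 for Sox11, 0.28 for Draxin, 0.23 for Sox4 and for Eomes, 0.09 for Neurod1, 0.05 for Igfbpl1, -0.27 for Calb2 and -0.35 for Neurog2. None of the 9 passed, at an adjusted p of 0.284 to 0.969 by permutation, and 0 had an unadjusted p under 0.05. In EtOH mice Sox4 and Sox11 had r = 0.77 and 0.68 with Cd24a, but in EtOH-UA mice -0.22 and -0.10; the difference between groups was not tested.

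Among the 10 genes themselves, 0 of 45 pairs passed after adjustment (smallest adjusted p = 0.154 by permutation) and 8 had an unadjusted p under 0.05. The highest r was 0.60 between Eomes and Igfbpl1 (permutation p = 0.00427), both of which are low genes. Dcx, Sox4 and Sox11 formed the next group, with r = 0.58 for Dcx and Sox4 (permutation p = 0.0144), 0.57 for Sox4 and Sox11 and 0.55 for Dcx and Sox11. The pair of Dcx and Sox4 rested on few mice, with r = 0.17 once the 2 mice farthest from the Dcx median were left out. Dcx and Neurog2 had r = -0.46.

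**Figure D3:**
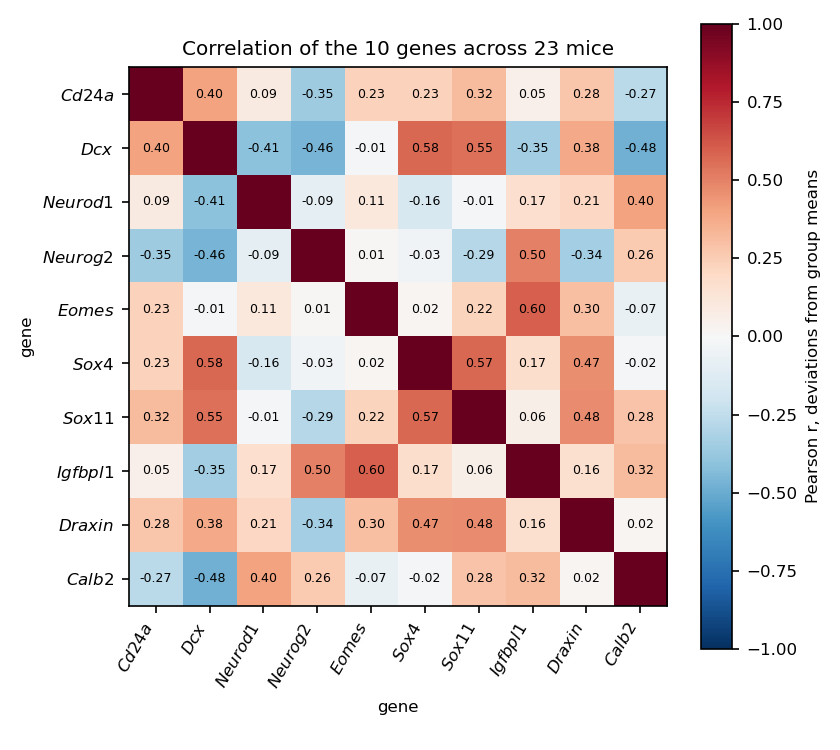
Pearson r between each pair of the 10 genes over 23 mice, computed from deviations from group means of log2(FPKM + 0.1), with red for positive and blue for negative values on a scale from -1 to 1. Dcx, Sox4 and Sox11 form a red block (0.55 to 0.58), while the Cd24a row stays between -0.35 and 0.40.

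The mean level of genes of ependymal cells had a higher r with Cd24a than any of the 9 genes had. A mean over 24 genes is not the same measure as a single gene, and no r was computed for a mean of the 9 genes. The ependyma list of 24 genes was written after these data had been seen, so its values are given with no test. The mean log2 level of the list had r = 0.79 with Cd24a across 23 mice (Spearman rho = 0.80), 0.71 without the 2 mice farthest from the list's median, and 0.89 for Ctrl, 0.55 for EtOH and 0.84 for EtOH-UA mice. For the other 9 genes r with the same mean lay between -0.39 (Neurog2) and 0.41 (Draxin), and it was 0.20 for Dcx. Of the list, 23 of 24 genes had r above 0 with Cd24a, with a median of 0.66, from 0.79 for Enkur down to 0.03 for Meig1 and -0.02 for Fam183b, and 5 of the 24 were below the r of Dcx. The 3 most abundant genes of the list were among the lower ones, with r = 0.37 for Rarres2, -0.02 for Fam183b and 0.41 for Rsph1. Ccdc153, the next in mean level, had r = 0.79.

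The summed level of this list overlapped between groups but its median was higher in both alcohol groups. It was 19.5 to 45.3 FPKM in Ctrl (median 28.9), 37.9 to 60.6 in EtOH (median 43.2) and 24.3 to 61.6 in EtOH-UA mice (median 47.0). Of 24 genes, 23 were higher in EtOH than in Ctrl mice with a median log2 difference of 0.70, beside 48.6% of all genes and a median of 0.00. In this comparison limma called 0 of the 24 (0.0% of the table), and 18 had an unadjusted p under 0.05 (3.05% of the table). Given how the list was chosen, these counts are a description and not a test of it. Ccdc153, a gene of motile cilia, was at 0.30 to 4.28 FPKM in Ctrl and 2.25 to 7.81 in EtOH mice. Rarres2, which encodes chemerin and was the most abundant of the list, was at 5.42 ± 0.832 FPKM (SD, n = 9) in Ctrl and 7.21 ± 1.44 (SD, n = 7) in EtOH mice. In EtOH-UA against EtOH mice 2 of 24 were higher, with a median of -0.31 that was -0.06 without the 2 EtOH-UA mice of the highest summed FPKM. The part of ependymal tissue in the Cd24a difference was not tested.

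**Figure D4:**
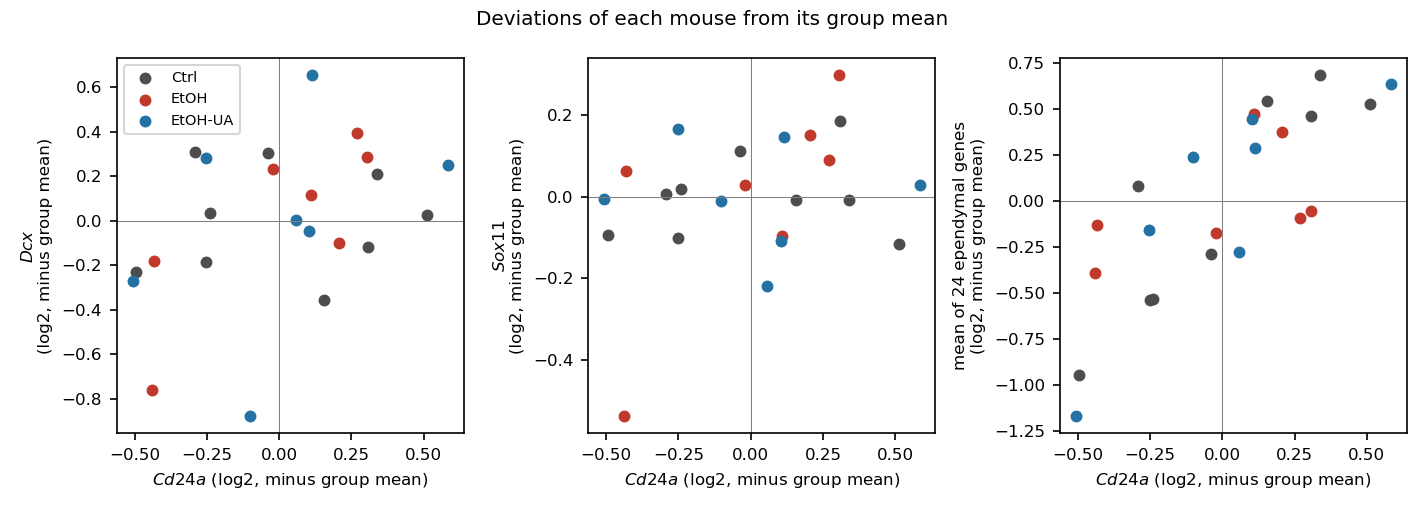
Deviation of Cd24a from its group mean (x axis, log2 scale) against the same deviation of Dcx, of Sox11 and of the mean of 24 ependymal genes (y axes, log2 scale), with 1 point a mouse in gray for Ctrl, red for EtOH and blue for EtOH-UA. The points scatter widely for Dcx (r = 0.40) and Sox11 (r = 0.32) and lie closer to a rising line for the ependymal genes (r = 0.79).

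The 10 genes with at least 1 FPKM whose deviations were most like those of Cd24a, out of 12903 compared, were Cfap44 (r = 0.82), Arid4b, Atp2c1, Uty, Chrnb1, Enkur, Ccdc153, Ak7, Nkain3 and Mapk1ip1l (0.78). Enkur, Ccdc153 and Ak7 are on the ependyma list, and Cfap44 is a gene of the ciliary axoneme. Among the genes most like Dcx were Ptprd (r = 0.94), Zkscan16, Ptprt, Rgs17, Dnm3, Evi5, Dennd4a, Tenm1 and Peg3 (0.92). These r are a description over 23 libraries that also share their normalization.

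Other lists of the lineage did not share a direction with Cd24a, with a median r from -0.23 to 0.32. Of 31 further progenitor and neuroblast genes, 10 had r above 0 with Cd24a, beside 50.3% of all genes, and the median was -0.23. Their r ran from -0.73 for the tubulin gene Tubb5 and -0.65 for Tubb3 to 0.42 for the transcription factor Neurod4. Tubb5 and Tubb3 had means of 118 and 93.9 FPKM, far above Dcx, and Neurod4 a mean of 0.148 FPKM, near the filter. In EtOH against Ctrl mice 9 of the 31 were higher, beside 48.6% of all genes, with a median log2 difference of -0.05. Of the 31, 0 were called (0.0% of the table) and 1 had an unadjusted p under 0.05 (3.05% of the table). Stmn1, which encodes the tubulin-binding protein stathmin and was the most abundant, was at 158 to 367 FPKM in Ctrl and 180 to 255 in EtOH mice. Of 16 stem cell genes 10 were higher in EtOH mice with a median of 0.03, and of 15 proliferation genes 11 were higher with a median of 0.10, 3 of them at an unadjusted p under 0.05 (3.05% of the table) and 0 called. Among them was Tyms, the thymidylate synthase gene, at 2.28 ± 0.331 FPKM (SD, n = 9) in Ctrl and 2.64 ± 0.309 (SD, n = 7) in EtOH mice. Of 15 mature granule cell genes, 11 were higher with a median of 0.07 and 0 were called; their median r with Cd24a was 0.32.

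Lists of other cells, among them cells that hold calretinin or CD24, were read in the same way. Of 6 Cajal-Retzius cell genes tested, all 6 were higher in EtOH than in Ctrl mice, beside 48.6% of all genes. Their median log2 difference was 0.17, and their median r with Cd24a was 0.39. The 13 thalamus and habenula genes, which include Calb2, had 12 higher with a median of 0.15, and the 10 inhibitory neuron genes had 1 higher with a median of -0.09. The 10 subventricular and olfactory neuroblast genes had a median of 0.01, the 8 mossy cell genes of -0.03 and the 12 oligodendrocyte progenitor genes of 0.02. Limma called 0 genes of any of these lists at an adjusted p under 0.05 (0.0% of the table). In this comparison 0 had an unadjusted p under 0.05 (3.05% of the table).

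All 5 blood genes had r below 0 with Cd24a (median -0.47, from -0.56 for Alas2 to -0.38 for Hbb-bt). All 5 were nevertheless higher in EtOH than in Ctrl mice, beside 48.6% of all genes, with a median of 0.35. Of the 5, 0 were called (0.0% of the table) and 0 had an unadjusted p under 0.05 (3.05% of the table). Hbb-bs, a beta-globin gene near-identical to Hbb-bt, was at 16.1 to 58.8 FPKM in Ctrl and 15.3 to 82.2 in EtOH mice. Among lymphocyte markers Ms4a1, which encodes the B cell protein CD20, was at 0 in 19 of 23 mice, and of 8 listed only Cd79a and Cd79b passed the filter, with r = 0.24 and -0.49 with Cd24a. The 8 microglia genes had a median r of -0.46 with Cd24a and a median log2 difference of -0.04. Choroid plexus genes were higher in EtOH mice in 16 of 16 cases, with a median of 1.60, 0 called and 2 at an unadjusted p under 0.05 (3.05% of the table). All 16 had r above 0 with Cd24a, from 0.29 to 0.51 with a median of 0.39, but their summed level ran from 41.9 to 3401 FPKM within Ctrl mice alone and from 134 to 6697 in EtOH mice. No r was computed for their sum. Their part in the Cd24a difference was not tested.

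Genes for partners of CD24 and for signals of the niche had small differences. Of 7 partner genes tested all 7 were higher in EtOH than in Ctrl mice, beside 48.6% of all genes. Their median was 0.08, and 0 were called (0.0% of the table). Nrcam, an adhesion molecule, was at 56.9 to 72.4 FPKM in Ctrl and 55.9 to 73.0 in EtOH mice with r = 0.62 with Cd24a. Of 24 niche genes 16 were higher with a median of 0.02, among them Ntrk2, the receptor of BDNF, at 72.9 to 90.2 FPKM in Ctrl and 73.4 to 92.3 in EtOH mice. No gene of these lists had an unadjusted p under 0.05 in this comparison, beside 3.05% of the table.

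**Figure D5:**
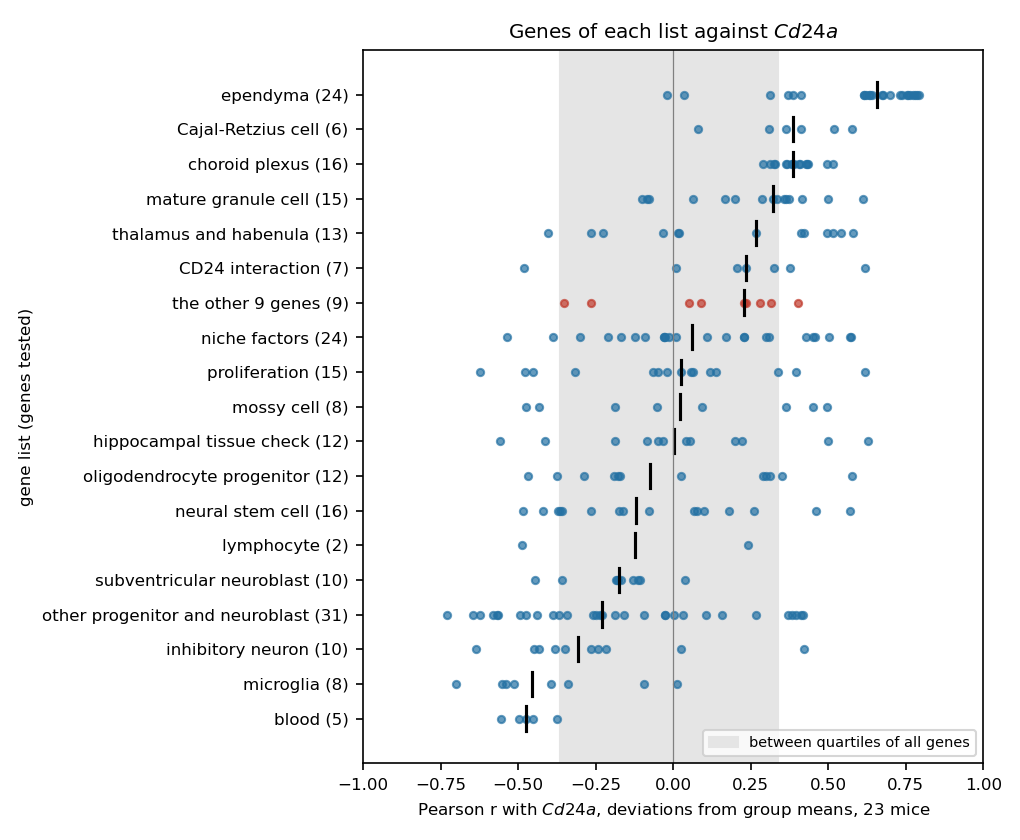
Pearson r with Cd24a (x axis) of every gene tested in each list (y axis, number of genes in parentheses), over 23 mice and from deviations from group means, with black bars for medians and gray for the range between the quartiles of all genes (-0.37 to 0.34). The other 9 genes (red) have a median of 0.23 inside the gray band, and the ependyma genes a median of 0.66 outside it.

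Summed FPKM moved with several of the 10 genes, in relations added after the data had been seen. The share of all genes that moved with it is not given, so these relations cannot be called particular to the 10 genes. Across 23 mice, its log2 had r = -0.64 with Cd24a (permutation p = 0.000900, adjusted over 10 relations p = 0.00450, rho = -0.62 with permutation p = 0.000940) and r = -0.79 with Dcx (permutation p = 0.000250, adjusted p = 0.00250, rho = -0.64 with permutation p = 0.00111). Without the 2 mice farthest from the median these were -0.75 and -0.64. Calb2 went the other way with r = 0.71 (permutation p = 0.00617, adjusted p = 0.0206, rho = 0.63), but r was 0.21 without those 2 mice, so that relation rested on them. The other 7 genes did not pass for r, with adjusted p from 0.0897 to 0.555 by permutation, although Neurog2 passed by rank (rho = 0.54, permutation p = 0.00794, adjusted p = 0.0198; r = 0.40). Without the 2 EtOH-UA mice of the highest summed FPKM, Draxin (r = -0.57) and Neurog2 (r = 0.59) passed as well, each with an adjusted permutation p of 0.0153. With 1 EtOH-UA mouse left out, the lowest adjusted permutation p was 0.0197 for Draxin, 0.0026 for Neurog2 and 0.0278 for Sox4. The r of the ependyma mean with summed FPKM is not given. The part of summed FPKM in the relation of Cd24a with Dcx, or with the ependyma mean, was not tested.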

How the data were processed

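RNA from the hippocampus of 23 mice was sequenced with 100-base reads. Per the methods, Bowtie2 placed the reads on mm10 and RSEM gave the FPKM that the authors deposited, with 2 decimals; the submitters' processing notes name Bowtie2 2.2.5, RSEM 1.2.8 and HISAT2 2.1.0, and the RNA is poly(A)+ in the methods but total in the labels. Columns were assigned to groups by name. The study's count test was not used because FPKM are not counts.

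Values were taken as log2(FPKM + 0.1), and genes whose mean reached 0.1 FPKM entered a fit by limma 3.58.1 (R 4.3.3) (1 model of 3 groups, eBayes with trend, Benjamini-Hochberg adjustment, threshold 0.05). For the 9 genes other than Cd24a, a two-sided exact permutation test of the difference of means used 11440 splits of mice, or 3432 for EtOH-UA against EtOH. Correlations used deviations from group means and 100000 two-sided permutations within groups. The p-values measure the spread between mice. On simulated data for EtOH against Ctrl with 200 of 15986 genes changed, limma recovered 73.5% at a log2 difference of 0.5 and 95% at 1. The simulated noise was independent between genes and had no lower limit. These shares need not hold in the real libraries or for low genes. The depth per library was only estimated, from steps between low values within 0.0075 FPKM of whole multiples.

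The 10 genes and the 18 other gene lists were chosen with earlier results of these data known. Counts of called genes and of unadjusted p-values in the 18 lists are therefore a description. All 10 genes are named, with the 10 genes most like Cd24a and those most like Dcx (some genes are not reported here), the 3 most abundant of each list or a part of these, and for the ependyma, blood and progenitor lists the genes with the highest and lowest r. Alternatives were other pseudocounts, filters and scalings, only the mice compared, and each mouse left out; relations with summed FPKM and the ependyma mean, and fits without 2 EtOH-UA mice, were added after the data had been seen.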

Additional observations from a re-analysis of the deposited data

Results flagged for a closer look

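In 2 of 30 sets of values (10 genes in 3 groups), 1 mouse stood apart from the rest of its group by more than Dixon's 95% critical value, where 1.5 are expected by chance at about 1 in 20. The highest EtOH-UA mouse for Neurod1 was at 14.07 FPKM and the next at 9.59 FPKM, a gap of 0.645 of the range on the log2 scale. The lowest Ctrl mouse for Neurog2 was at 0.20 FPKM and the next at 0.33 FPKM, a gap of 0.532 of the range. Neither gene passed the test in any comparison.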

How the results depend on the processing

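Over 1086 tested values of the 9 genes under the alternatives (log2 differences and r with Cd24a), 0 had an adjusted p under 0.05, and the smallest was 0.141. The number of genes called was 0 in each comparison under every alternative other than leaving out 1 mouse, and 0 to 1 when 1 mouse was left out: LOC115488002 without 1 Ctrl mouse in EtOH against Ctrl, and LOC101055676 without either of 2 EtOH-UA mice in the other comparisons. Of the 9 genes, 0 were correlated with Cd24a at an adjusted p under 0.05 throughout. Leaving out 1 mouse at a time, the Cd24a difference was 0.78 to 0.92 for EtOH minus Ctrl, -0.48 to -0.29 for EtOH-UA minus EtOH and 0.37 to 0.55 for EtOH-UA minus Ctrl, that of Igfbpl1 for EtOH-UA minus Ctrl was 0.92 to 1.14, and r of Cd24a with the ependyma mean was 0.76 to 0.82.

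Some differences turned in sign, and the cause was not tested. Quantile normalization gave EtOH minus Ctrl -0.033 for Sox11 and -0.045 for Draxin, EtOH-UA minus EtOH 0.024 for Neurog2, 0.027 for Draxin and -0.034 for Calb2, EtOH-UA minus Ctrl -0.018 for Draxin, and r of Cd24a with Igfbpl1 -0.026. Upper-quartile scaling gave -0.015 for Calb2 (EtOH-UA minus EtOH) and -0.0041 for Draxin (EtOH-UA minus Ctrl), and a pseudocount of 0.01 gave -0.013 for the latter. Without the 2 EtOH-UA mice of the highest summed FPKM, an alternative chosen after seeing the data, EtOH-UA minus EtOH was 0.016 for Draxin and -0.38 for Calb2, EtOH-UA minus Ctrl was 0.085 for Dcx, -0.016 for Neurod1 and -0.29 for Calb2, and r of Neurod1 with log2 summed FPKM was -0.094. In single groups, r with Cd24a turned in EtOH-UA mice for Draxin (-0.18), Igfbpl1 (-0.35), Sox11 (-0.10) and Sox4 (-0.22), and in EtOH mice for Igfbpl1 (-0.036) and Neurod1 (-0.13). With 1 mouse left out, EtOH minus Ctrl ranged from -0.047 to 0.093 for Sox11, -0.016 to 0.17 for Draxin and -0.0084 to 0.15 for Calb2; EtOH-UA minus EtOH from -0.16 to 0.049 for Neurog2, -0.049 to 0.091 for Sox11, -0.17 to 0.011 for Draxin and -0.20 to 0.12 for Calb2; EtOH-UA minus Ctrl from -0.25 to 0.0018 for Dcx, -0.058 to 0.094 for Neurod1, -0.10 to 0.071 for Draxin and -0.12 to 0.21 for Calb2. In the same fits r of Cd24a ranged from -0.042 to 0.11 with Igfbpl1 and -0.016 to 0.27 with Neurod1, and r of Neurod1 with log2 summed FPKM from -0.22 to 0.33. The correlation of Calb2 with log2 summed FPKM lost its call without either of the 2 EtOH-UA mice of highest summed FPKM (lowest r 0.50), and with 1 EtOH-UA mouse left out Draxin, Neurog2 and Sox4 passed in some fits (lowest adjusted p 0.0197, 0.0026 and 0.0278).

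No paired analysis was possible because the columns carry mouse numbers and no replicate numbers shared between groups. A filter at a mean of at least 1 FPKM left no value for Neurog2, Eomes, Igfbpl1 and Draxin. Depth limits these 4 genes, at 9.90 to 16.4 estimated fragments a mouse.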
